A study of Boehmeria nivea with 2 samples.

Results

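The genes described here are the core circadian clock genes of ramie (Boehmeria nivea), a fibre crop, in leaves of plants challenged with larvae of the ramie moth (RM) and in leaves of control plants. They are 7 of the 46533 unigenes of the merged leaf assembly, where a unigene is the set of assembled transcripts treated as 1 gene. They were chosen by their best hit in Swiss-Prot: the morning genes CCA1 (2 unigenes) and LHY (1 unigene), and the evening genes APRR1 (2 unigenes), EARLY FLOWERING 4 (ELF4, 1 unigene) and GIGANTEA (1 unigene). Of 8 unigenes with such a hit, 1 with an APRR1 hit and 1 read in each library is not among the 7.

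The RM-challenged group (CH) was made of 30-day-old plants of the cultivar Chuanzhu No.8, each carrying 2 J2 larvae that had fasted for 12 h and were set on leaf 4 below the shoot tip. The control group (CK) was made of plants of the same cultivar and age, labelled mock-challenged and sampled at the same times without larvae. All plants were rooted cuttings grown with 14 h of light per day. At 12, 24, 48 and 72 h the 2 topmost leaves without damage were taken from 5 plants, so the leaf that was eaten is not what was sequenced. Equal amounts of RNA from the 4 harvests were mixed, and 1 library per group was sequenced. There are thus no replicate libraries, no difference below has a replicate check, and every test compares these 2 libraries rather than the conditions.

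The plant clock, as worked out mainly in Arabidopsis, is a loop of genes that repress each other at different times of day. LHY and CCA1 are related MYB-type transcription factors that accumulate around dawn and hold down the evening genes. APRR1, better known as TOC1, is a pseudo-response regulator that accumulates around dusk and represses CCA1 and LHY in turn, ELF4 belongs to the evening complex with ELF3 and LUX, and GIGANTEA is a large nuclear protein that steadies the blue-light receptor ZEITLUPE and promotes flowering under long days. In Arabidopsis the clock also times jasmonate levels and resistance to chewing insects. Of the 4 harvests, 3 fell a whole number of days after the larvae were placed and 1 fell at 12 h. The sources used here do not give the hour of the day at which they were taken. Each library therefore holds a mixture of times, from which neither the phase nor the amplitude of a rhythm can be read.

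The CH library held 26938918 counted fragments, called reads here, and the CK library 17800062. The 7 clock unigenes held 51987 reads in CH and 43236 reads in CK, that is 0.193% and 0.243% of each library. Leaf proteins checked the tissue. Together, 89 unigenes of rubisco small subunit, rubisco activase, chlorophyll a-b binding and oxygen-evolving proteins held 3.73% of the CH reads and 8.75% of the CK reads, with a summed level of 32381 RPKM in CH and 76795 RPKM in CK, and 10 of them were at 0 reads in CH and 8 in CK. RPKM, reads scaled by the effective length of a unigene and by the library total, is the level used to compare genes. Flower markers (2 unigenes) held 8 reads in CH and 4 in CK, and seed markers (2 unigenes) 64 reads in CH and 49 in CK. Unigenes with a best hit to a fungus or oomycete (701) held 0.24% of reads in CH, where 58 were at 0, and 0.135% in CK, where 397 were at 0. The leaf markers thus took a smaller part of the CH library and the fungus-like unigenes a larger one, and their part in the differences below was not tested. In whole leaves, fewer cells that express a gene cannot be told apart from less of its RNA per cell.

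None of the 7 core clock unigenes was called different between CH and CK. A unigene was called where the test of Audic and Claverie, adjusted over all 43302 unigenes with a read, gave a p below 0.01 and the RPKM ratio was at least 2 in either direction. By this rule 6.76% of the unigenes tested were called, 2.48% higher and 4.28% lower in CH. For 6 of the clock unigenes the reads of the 2 libraries summed to 1000 or more, and of the 7322 unigenes of that depth 10.3% were called. The 7 clock unigenes did not share 1 ratio. LHY and the abundant CCA1 were lower in CH, GIGANTEA and ELF4 were higher, and the abundant APRR1 lay close to 1. On the adjusted p alone, with no fold threshold, 4 of the 7 passed, 2 of them higher in CH (ELF4 and GIGANTEA) and 2 lower (LHY and the abundant CCA1). On that rule, which was added after the data were seen, 9.82% of all unigenes tested were higher and 10.4% lower, and among those with at least 1000 reads 38.2% were higher and 29.9% lower. A share of 4 in 7 is thus near that of other deeply covered unigenes. At an unadjusted p under 0.05, 7 of 7 passed, as did 29.5% of all unigenes tested and 78.9% of those with at least 1000 reads. The exact binomial test and the exact test of edgeR, run at a between-library coefficient of variation set to 0.2 or to 0.4 or at a dispersion blind to the groups, called 0 of 7.

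LHY was the most abundant of the clock genes in both libraries. Its unigene, comp38712_c0, has 8 assembled transcripts and a best hit in chestnut (Castanea sativa). It had 32573 reads and 379 RPKM in CH (95% counting interval 375 to 383), against 31190 reads and 551 RPKM in CK (545 to 557). The CK level was the higher, and the intervals were far apart. Per library total the CH/CK ratio was 0.69 (0.679 to 0.701), a log2 ratio of -0.54. Among the unigenes with at least 1000 reads, 14.7% had a ratio as low or lower. By RPKM, LHY ranked 211 among all unigenes in CH and 131 in CK, so that a clock gene stood among the more abundant transcripts of these leaves. Its reads made up 62.7% of the reads of the 7 clock unigenes in CH and 72.1% in CK. These intervals, and all others given with a ratio or a level, are exact and cover counting error only, not the spread between plants or libraries.

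CCA1, the partner of LHY at dawn, was the best hit of an abundant and a scarce unigene that lay on opposite sides of 1. Whether either is the true counterpart of CCA1 in ramie was not tested. The abundant unigene, comp36154_c1, has 1 transcript of 2004 bp and a best hit in apple (Malus domestica). It had 7801 reads and 151 RPKM in CH, against 6414 reads and 188 RPKM in CK. It was lower in CH, with a ratio of 0.804 (0.777 to 0.831), and 22.5% of the unigenes with at least 1000 reads were as low or lower. The scarce unigene, comp26468_c0, has 5 transcripts and a best hit in grape (Vitis vinifera). It had 678 reads and 11.4 RPKM in CH, against 375 reads and 9.51 RPKM in CK. Its ratio of 1.19 (1.05 to 1.36) was above 1, but the adjusted p of 0.0266 by the test of Audic and Claverie did not pass. The ratio of the scarce CCA1 to LHY, which does not depend on the library totals, was 0.0208 in CH and 0.012 in CK, 1.73 times higher in CH (1.52 to 1.97), while that of the abundant CCA1 to LHY was 0.239 in CH and 0.206 in CK, 1.16 times higher (1.12 to 1.21). The assembled component of the abundant CCA1 also holds a unigene named as trehalose-phosphate synthase 7, comp36154_c2, with 8305 reads in CH and 3168 in CK, a ratio of 1.73 (1.66 to 1.81). CCA1 and LHY are alike in sequence, and the sources used here do not say how the counting shared reads between such unigenes.

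**Figure D1:**
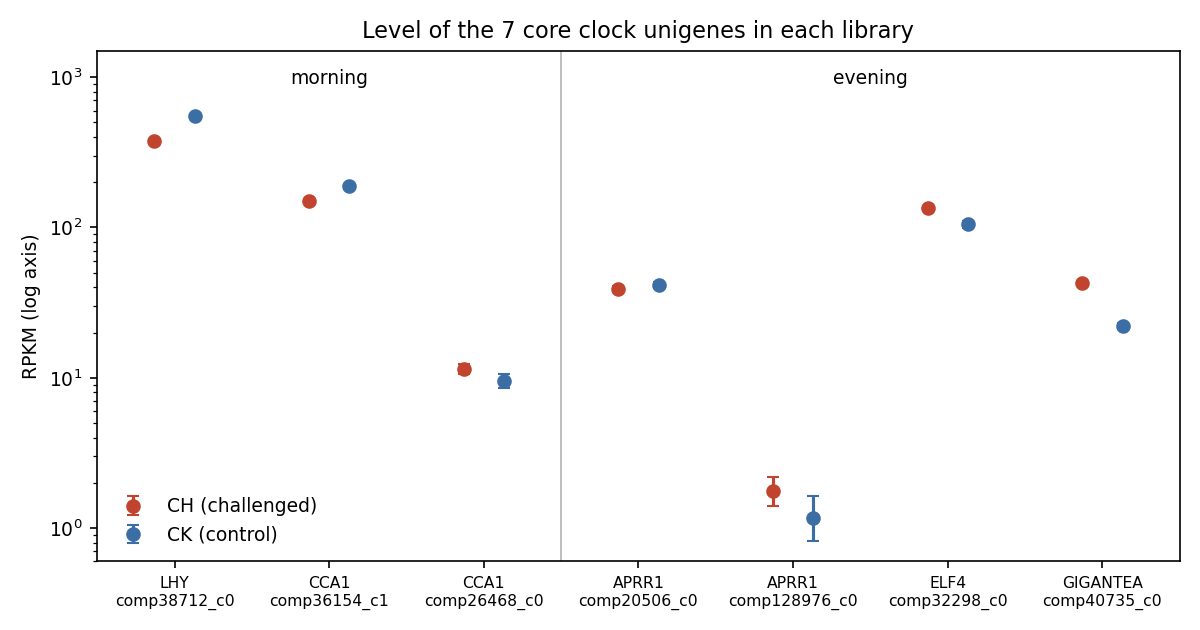
RPKM (log axis) of the 7 core clock unigenes in CH (red, left of each pair) and CK (blue, right), with the morning genes on the left and the evening genes on the right; bars are exact 95% Poisson intervals of the reads and are mostly smaller than the points. LHY was highest in both libraries (379 RPKM in CH, 551 in CK). On the log axis, that is as a ratio, the widest gap within a pair was that of GIGANTEA (42.7 RPKM in CH, 22 in CK).

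APRR1, the pseudo-response regulator that represses CCA1 and LHY, differed little in its main unigene. This unigene, comp20506_c0, has 2 transcripts and a best hit in cacao (Theobroma cacao). It had 2645 reads and 39.2 RPKM in CH (37.7 to 40.7), against 1872 reads and 41.5 RPKM in CK (39.6 to 43.4). Its ratio of 0.934 (0.88 to 0.991) was just below 1, with an adjusted p of 0.0875 by the test of Audic and Claverie. The other APRR1 unigene, comp128976_c0, with a best hit in strawberry (Fragaria), was the scarcest of the 7. It had 80 reads and 1.77 RPKM in CH, against 35 reads and 1.17 RPKM in CK. The ratio of 1.51 had a wide interval, 1.00 to 2.32, and its adjusted p of 0.164 in the same test did not pass. A further unigene with an APRR1 hit, comp14283_c0, had 1 read in each library and was not among the 7.

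ELF4, a small protein of the evening complex, was higher in CH. Its unigene, comp32298_c0, has 2 transcripts and a best hit in castor bean (Ricinus communis). It had 3451 reads and 135 RPKM in CH (131 to 140), against 1728 reads and 105 RPKM in CK (99.9 to 110), and the intervals did not overlap. The ratio per library total was 1.32 (1.25 to 1.4), and 21.6% of the unigenes with at least 1000 reads were as high or higher. ELF4 was the most abundant of the evening genes per length in both libraries.

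GIGANTEA had the largest CH/CK ratio of the 7, although the interval of the scarce APRR1 reached past it. Its unigene, comp40735_c0, has 1 transcript of 4229 bp and a best hit in cacao. It had 4759 reads and 42.7 RPKM in CH (41.5 to 43.9), against 1622 reads and 22 RPKM in CK (21 to 23.1). Its ratio was 1.94 (1.83 to 2.05), a log2 ratio of 0.96, and its interval reached the fold threshold of 2. Of the unigenes with at least 1000 reads, 4.12% were as high or higher. The threshold decided the call: scaled by TMM factors the ratio was 2.01, and scaled by the median of ratios 2.05, and under either scaling GIGANTEA was called higher.

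**Figure D2:**
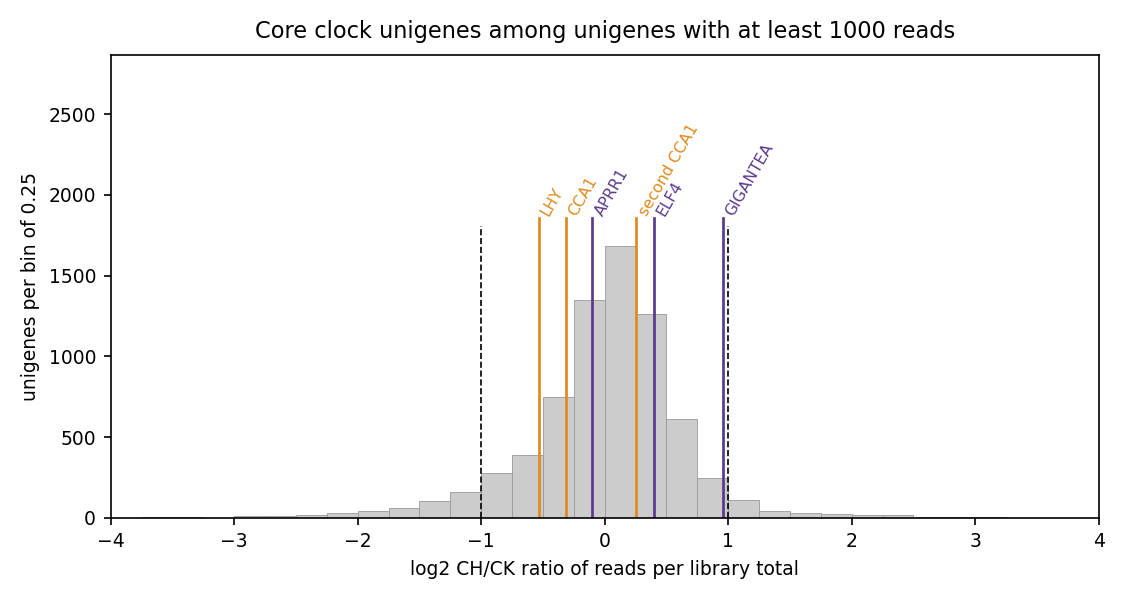
Histogram of the log2 CH/CK ratio of reads per library total over the unigenes with at least 1000 reads (grey, bins of 0.25), with the 6 core clock unigenes of that depth as vertical lines (orange, morning; purple, evening) and the 2-fold thresholds dashed; the lines have no height of their own. LHY at -0.54 and GIGANTEA at 0.96 lay on the lower and the upper side of the bulk, and no line lay outside the thresholds.

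The order of the 7 levels was nearly the same in the libraries. By RPKM it ran in CH as LHY, the abundant CCA1, ELF4, GIGANTEA, the main APRR1, the scarce CCA1 and the scarce APRR1. In CK the order was the same except that GIGANTEA stood below the main APRR1. GIGANTEA was 1.09 times the level of APRR1 in CH (1.04 to 1.14), whereas in CK APRR1 was 1.88 times the level of GIGANTEA (1.76 to 2.01). The narrowest step in CH was this one, and the abundant CCA1 was next, at 1.12 times the level of ELF4 in CH (1.07 to 1.16) and 1.8 times in CK (1.7 to 1.9). No pair of neighbours in either order had a ratio whose interval held 1, by counting error alone.

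The balance of evening over morning genes was compared within each library, where the library total drops out. The 4 evening unigenes had 10935 reads for 41052 morning reads in CH, a ratio of 0.266 (0.261 to 0.272). In CK they had 5257 reads for 37979 morning reads, a ratio of 0.138 (0.134 to 0.142). The balance was thus 1.92 times higher in CH (1.86 to 1.99). It was higher in CH also without GIGANTEA, 1.57 times (1.5 to 1.64), without LHY, 1.67 times (1.59 to 1.74), and in summed RPKM, 1.78 times, with 0.404 in CH and 0.226 in CK. The summed RPKM shows both sides of it, 219 evening RPKM in CH against 169 in CK, and 542 morning RPKM in CH against 749 in CK. GIGANTEA over LHY was 0.146 in CH and 0.052 in CK, 2.81 times higher in CH (2.65 to 2.98). ELF4 over LHY was 0.106 in CH and 0.0554 in CK, 1.91 times higher (1.8 to 2.03), and the main APRR1 over LHY was 0.0812 in CH and 0.06 in CK, 1.35 times higher (1.27 to 1.44). LHY had the lowest CH/CK ratio of the 7, 0.69, so any other member over LHY was bound to be higher in CH. The morning CCA1 unigenes over LHY were higher too, 1.73 and 1.16 times. The ratios over LHY therefore do not by themselves show a shift to evening genes. LHY held 32573 of the 41052 morning reads in CH and 31190 of the 37979 in CK. The balance of all genes and that without GIGANTEA thus also rest mostly on LHY. Nor did every pair go the same way, as the main APRR1 had a CH/CK ratio of 0.934 and the scarce CCA1 one of 1.19. No test is given for any ratio of this balance, since the genes were chosen with results of these data known.

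**Figure D3:**
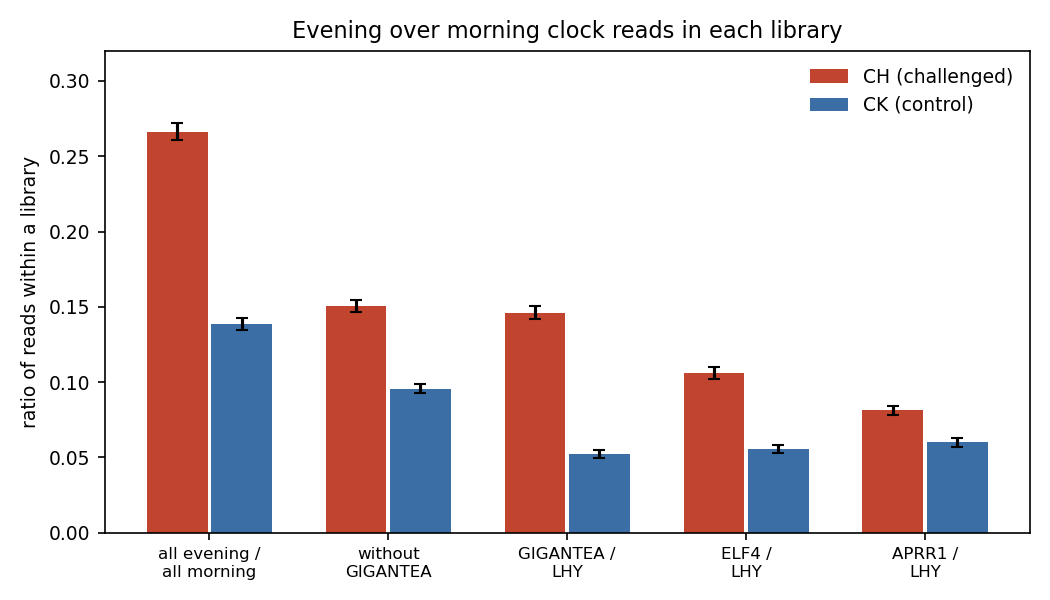
Ratio of reads of evening to morning clock unigenes within CH (red, left) and CK (blue, right); bars start at 0, whiskers are exact 95% counting intervals, and "without GIGANTEA" leaves that gene out of the evening sum. Every ratio drawn was higher in CH, the sum over all genes at 0.266 in CH and 0.138 in CK. Those over LHY were bound to be, since LHY had the lowest CH/CK ratio of the 7.

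The annotation also gave the 7 unigenes GO terms, which rest on database hits as their names do and are no separate evidence. All 7 carried a GO term that names the circadian clock or rhythm, 5 were placed in the nucleus and 5 under protein binding. Both CCA1 unigenes and GIGANTEA carried response to cold, and both CCA1 unigenes and LHY response to salt stress. Both CCA1 unigenes carried response to jasmonic acid, the hormone of wound and insect responses. The same 2 also carried responses to abscisic acid, auxin, ethylene, gibberellin, salicylic acid, cadmium and organic nitrogen, so the jasmonic acid term is not specific. Over the 10106 unigenes with a Swiss-Prot hit and at least 100 reads, those most like each clock gene in level and ratio were found by their distance in log2 RPKM, which rests on only 2 libraries. The nearest to LHY was RAP2-4, an ethylene-responsive transcription factor (comp37813_c7), with 385 RPKM in CH and 557 in CK. The nearest to GIGANTEA was the receptor-like kinase PERK2 (comp29687_c0), with 42.4 RPKM in CH and 21.9 in CK. The nearest to ELF4 was heavy metal-associated isoprenylated plant protein 26 (comp32225_c0), with 134 RPKM in CH and 105 in CK. Next came cyclic dof factor 3 (comp37553_c0), a homolog of repressors of CONSTANS, with 134 RPKM in CH and 104 in CK. Between 2 and 37 unigenes lay within 0.1 of each clock gene on this scale.

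Other genes of the clock were found by name as 30 unigenes, and 24 of them had at least 10 reads. Of the 30, 2 were called higher and 0 lower in CH, beside the 2.48% and 4.28% of all unigenes. The median log2 ratio of those with at least 10 reads was 0.2, beside -0.01 over all 23653 unigenes of that depth. Over unigenes with at least 1000 reads, as many of the clock unigenes have, the median was 0.06. The 2 calls made up 8.33% of the 24, beside 12.3% of all unigenes with at least 10 reads. Without the fold threshold 10 of the 30 were higher and 3 lower. On that rule 9.82% of all unigenes were higher and 10.4% lower. Among those with at least 1000 reads, 38.2% were higher and 29.9% lower. APRR5, a daytime repressor of CCA1 and LHY (comp31076_c0), rose 2.2-fold (1.94 to 2.49), with 1084 reads and 15.3 RPKM in CH and 326 reads and 6.99 RPKM in CK. The beta subunit of casein kinase II, a kinase that phosphorylates CCA1 (comp38140_c4), rose 2.08-fold (1.99 to 2.18), with 8256 reads and 226 RPKM in CH and 2619 reads and 109 RPKM in CK. Both calls were lost in edgeR's exact test at each dispersion tried.

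The main unigenes of the partners of ELF4 were higher in CH by less than the threshold. The main ELF3 unigene, the scaffold of the evening complex (comp39207_c7), had 11070 reads and 130 RPKM in CH and 4328 reads and 76.3 RPKM in CK, a ratio of 1.69 (1.63 to 1.75). LUX, its DNA-binding member (comp35542_c0), had 1504 reads and 31.7 RPKM in CH and 511 reads and 16.3 RPKM in CK, a ratio of 1.95 (1.76 to 2.15), and was called higher under TMM and median of ratios scaling, as GIGANTEA was. ELF4, ELF3 and LUX were thus all above 1, but not every unigene of these families was. PCL1, a further name for LUX-type factors (comp36802_c0), had 480 reads in CH and 389 in CK, a ratio of 0.815 (0.712 to 0.934). ELF4-LIKE 4, named as a relative of ELF4 (comp27059_c0), had 618 reads in CH and 480 in CK, a ratio of 0.851 (0.754 to 0.96).

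The pseudo-response regulators of the day did not share a direction. The most abundant, PRR37 (comp31548_c0), which is known in grasses as a flowering-time gene, had 23292 reads and 220 RPKM in CH and 11343 reads and 162 RPKM in CK, a ratio of 1.36 (1.33 to 1.39). Of the 3 APRR7 unigenes, comp32144_c1 had a ratio of 1.05 (1.01 to 1.08), comp32144_c0 of 0.886 (0.818 to 0.961) and comp38455_c0 of 0.592 (0.506 to 0.692). Adagio 1, the homolog of ZEITLUPE, which GIGANTEA steadies (comp24726_c0), had 4440 reads in CH and 3488 in CK, a ratio of 0.841 (0.804 to 0.879). Both unigenes of Adagio 3, the homolog of the related receptor FKF1, were above 1, comp32354_c0 at 1.31 (1.14 to 1.52) and comp32354_c1 at 1.19 (1.06 to 1.33).

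The remaining clock-associated proteins were spread around 1. TIME FOR COFFEE, a nuclear regulator of the clock (comp36983_c0), had 11818 reads in CH and 7807 in CK, a ratio of 1 (0.972 to 1.03). The main casein kinase II alpha unigene (comp29447_c0) had a ratio of 1.43 (1.38 to 1.48), XAP5 CIRCADIAN TIMEKEEPER (comp31936_c0) of 1.36 (1.24 to 1.49) and SENSITIVITY TO RED LIGHT REDUCED 1 (comp35615_c0) of 1 (0.874 to 1.15). The arginine methyltransferase PRMT5 (comp38430_c0) had 1.08 (0.897 to 1.31), and TCP21, known in Arabidopsis as a repressor of CCA1 (comp21156_c0), 0.628 (0.499 to 0.789) on 152 reads in CH and 160 in CK. Transcription factor ASG4, a MYB-type relative of LHY looked up after the annotation was seen, was found as 3 unigenes, of which comp28534_c0 had a ratio of 1.44 (1.29 to 1.61) and comp32906_c0 of 0.634 (0.591 to 0.679).

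**Figure D4:**
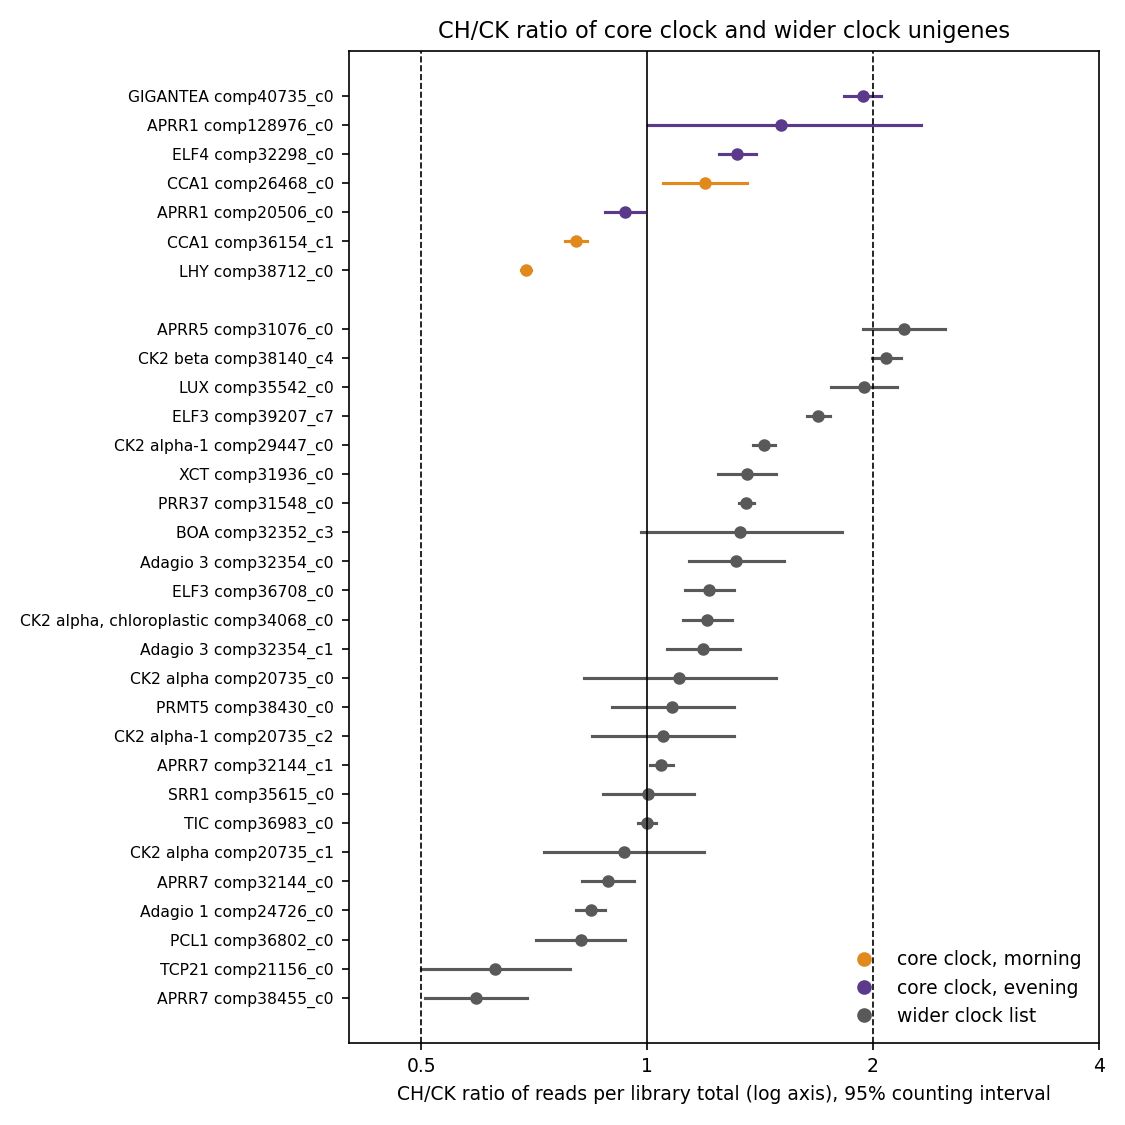
CH/CK ratio of reads per library total (log axis) with exact 95% counting intervals for the 7 core clock unigenes (top; orange, morning; purple, evening) and the 24 other clock unigenes with at least 10 reads (grey), sorted within each block; dashed lines mark the 2-fold thresholds. GIGANTEA (1.94), APRR5 (2.2), casein kinase II beta (2.08) and LUX (1.95) lay around the upper threshold, and LHY (0.69) was the lowest of the 7.

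Light resets the clock through photoreceptors and the factors below them, found here as 33 unigenes, 27 of them with at least 10 reads. None was called higher and 3 were called lower in CH, 11.1% of the 27 beside 12.3% of all unigenes with at least 10 reads, and the median log2 ratio was -0.13. No call was left in edgeR's exact test at a coefficient of variation of 0.4 or at the blind dispersion. HY5, a factor that promotes light-driven development (comp33391_c0), fell to 237 reads and 8.06 RPKM in CH, against 596 reads and 30.8 RPKM in CK, a ratio of 0.263 (0.225 to 0.306). PIF3, a factor that binds phytochrome (comp37608_c0), fell to 693 reads in CH, against 1472 in CK, a ratio of 0.311 (0.284 to 0.341), whereas the other PIF3 unigene, comp22153_c0, had a ratio of 1.52 (1.43 to 1.61). Cryptochrome DASH, a relative of photolyases rather than a clock photoreceptor (comp38112_c0), fell to 676 reads in CH, against 1154 in CK, a ratio of 0.387 (0.351 to 0.426). The photoreceptors that set the clock were not called. Phytochrome A (comp39229_c0) had a ratio of 1.32 (1.28 to 1.36), phytochrome B (comp31815_c0) of 1.03 (0.967 to 1.1), cryptochrome 1 (comp31476_c0) of 1.14 (1.11 to 1.17) and cryptochrome 2 (comp35858_c0) of 1.07 (1.04 to 1.11).

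Unigenes with the names of genes known as clock outputs numbered 58, 40 of them with at least 10 reads. In CH 3 were called higher and 6 lower, 22.5% of the 40 beside the 12.3% of all unigenes of that depth, with a median log2 ratio of -0.2. The list was matched by Swiss-Prot name and held some unigenes with best hits outside plants. Whether the clock drives these genes in ramie was not tested. In edgeR's exact test 0 calls were left at a coefficient of variation of 0.4 or at the blind dispersion, and with a pseudocount of 1 on RPKM 1 of the 3 higher calls was left. Those called were mostly of the CONSTANS family of B-box zinc finger proteins, in which CONSTANS itself links day length to flowering downstream of GIGANTEA. CONSTANS (comp36435_c0) fell to 292 reads and 8.03 RPKM in CH, against 849 reads and 35.4 RPKM in CK, a ratio of 0.227 (0.198 to 0.26). CONSTANS-LIKE 14 (comp28108_c0) fell to 118 reads in CH, against 498 in CK, a ratio of 0.157 (0.127 to 0.192), and CONSTANS-LIKE 16 (comp29868_c0) to 36 reads in CH, against 93 in CK, a ratio of 0.256 (0.169 to 0.38). More abundant CONSTANS-LIKE 16 unigenes lay nearer 1, among them comp36613_c0 at 0.697 (0.672 to 0.723) and comp35769_c2 at 1.11 (1.04 to 1.18). In the other direction, both unigenes of an assembled component named CONSTANS-LIKE 15 were called higher, comp31034_c0 at 2.05 (1.75 to 2.42) and comp31034_c1 at 2.14 (1.53 to 3.05). A further CONSTANS-LIKE 15 unigene, comp29104_c0, had 53 reads in CH and 52 in CK, a ratio of 0.673 (0.451 to 1.01). The third unigene called higher, catalase-1 (comp191149_c0), had 56 reads in CH and 1 in CK, a ratio of 37 (6.37 to 1487), and its best hit was in the brown alga Ectocarpus siliculosus. GIGANTEA and CONSTANS thus lay on opposite sides of 1, at 1.94 and 0.227.

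A broader list took unigenes by a match to circadian rhythm in their GO terms. It held 6 of the 7 clock unigenes, all but GIGANTEA, whose clock term lay outside the match. The list numbered 465 unigenes in all. Of these, 14 were called higher and 25 lower, 11.1% of the 351 with at least 10 reads beside the 12.3% of all such unigenes, and the median log2 ratio of the 351 was 0.02. All calls were lost in edgeR's exact test at a coefficient of variation of 0.4 or at the blind dispersion. The 3 higher by the nearest interval bound were the isomerase CYP18-3 (comp20471_c0, 32 reads in CH and 0 in CK, at least 7.05-fold higher against a floor of 3 reads, with a best hit in the fungus Mucor), BTB/POZ and TAZ domain-containing protein 4 (comp32470_c1, 4.67-fold, 3.6 to 6.13) and glycine-rich protein DC7.1 (comp16173_c0, 3.43-fold, 3.26 to 3.62). The 3 lower by the nearest interval bound were the chloroplast stem-loop binding protein b (comp33310_c0), with 2190 reads in CH and 15324 in CK, a ratio of 0.0944 (0.0903 to 0.0988), CONSTANS-LIKE 14 and the kinase WNK1 (comp36684_c0), at 0.222 (0.197 to 0.249). The chloroplast stem-loop binding protein thus had a larger gap between the libraries than any of the 7 core clock unigenes.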

How the data were processed

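Reads of the CH and CK libraries were assembled together by the authors with Trinity and mapped back, and the authors deposited an expected count of fragments and an RPKM value per unigene and library. The sources used here name no mapper or counter; the submitters' processing notes name DESeq. The deposited RPKM equalled the expected count per effective length and library total within 0.01 for 99.8% of 46533 unigenes, checked in CH. The annotation deposited by the authors gives BLASTx hits and GO terms as text.

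After rounding of the expected counts, the libraries were compared by the Audic and Claverie test (2-sided) on the 43302 unigenes with a read with Benjamini and Hochberg adjustment; a call needed adjusted p < 0.01 together with a 2-fold RPKM ratio. With 1 library per group, edgeR's quasi-likelihood test has no residual degrees of freedom. Ratios of reads per library total carry exact 95% Clopper-Pearson intervals, levels exact Poisson intervals, and 0 reads a floor of 3 reads. Calls were tested on simulated data. The clock genes and lists were chosen with earlier results of these data known, so no p is given for any list.

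Named were the 7 genes, other unigenes with the same hit, and the most abundant unigene of each wider clock protein. From each list up to 3 called per direction were named by the interval bound nearest 1. The 2 unigenes most like each clock gene were sought for all 7. Of these only the nearest to LHY and to GIGANTEA and the 2 nearest to ELF4 are named. Other unigenes named, among them further LUX, APRR7 and CONSTANS-LIKE types, ELF4-LIKE 4, Adagio 3, ASG4 and the photoreceptors, were chosen after their values were seen. Alternatives were the exact binomial test, edgeR's exact test, TMM and median of ratios scaling, filters of 10 reads, RPKM pseudocounts (0.1 and 1), a stricter fold (4) and a stricter adjusted p (0.001). Python 3.11.15, scipy 1.17.1, pandas 2.3.3, numpy 2.4.6, R 4.3.3, edgeR 4.0.16 and DESeq2 1.42.0 (size factors) were used.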

Additional observations from a re-analysis of the deposited data

How the results depend on the processing

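Of the 7 core clock unigenes 0 were called, 1 under TMM and 1 under median of ratios scaling (GIGANTEA in both), and 4 with no fold threshold, a setting chosen after seeing the data. Scaling took the LHY ratio of 0.69 to 0.716 (TMM) and 0.728 (median of ratios), and that of the abundant CCA1, 0.804, to 0.834 and 0.848; it shifted all log2 ratios by 0.05 and 0.08, and no core gene changed sides of 1. The evening over morning ratio of CH to CK, 1.92, was 1.57 without GIGANTEA, 1.67 without LHY and 1.78 in summed RPKM. In the wider clock list the 2 calls became 0 at a coefficient of variation of 0.2, 0.4 or the blind one (0.407), 0 at a 4-fold threshold and 13 with no fold threshold. For light input the 3 calls became 0 at 0.4, 0 blind, 0 at 4-fold and 16 with no fold threshold. For clock output the 9 calls became 4 at 0.2, 0 at 0.4, 0 blind, 4 at 4-fold and 22 with no fold threshold. For the circadian rhythm GO term the 39 calls became 10, 0, 0, 8 and 175 in the same order. Over all unigenes the 2929 calls (1075 higher, 1854 lower) became 495 higher and 579 lower at 0.2, 134 and 52 at 0.4, 44 and 51 blind, 585 and 654 at 4-fold, and 4254 and 4516 with no fold threshold. The binomial test, the read filters, the pseudocounts and the adjusted p of 0.001 kept every list's count within 1.5 times its value. No paired analysis was possible because each group has 1 library. A variation between libraries cannot be estimated here, which limits every call above, and unigenes of few reads, such as the scarce APRR1, have wide intervals.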
